A study of Mus musculus with 24 samples.

Results

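Macrophages and other blood-derived leukocytes were read in vessels of mouse embryos at E18.5 through 10 genes, Ptprc, Cd68, Csf1r, Adgre1, Lyz2, Mrc1, Cx3cr1, C1qa, C1qb and C1qc. These 10 of the 54752 genes in the count table were chosen by symbol as genes known from these cells, when earlier results of these data were known. All 10 passed the filter on low counts, as did 16463 genes in all. Bulk RNA-Seq sums over every cell of a sample, so fewer cells of a type and less RNA per cell cannot be told apart.

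Macrophages settle in the walls of large vessels before birth, mostly in the outer layer, the adventitia, and persist there as long-lived residents. They depend on signals through the receptor Csf1r, take up debris and dying cells, and are the main source of complement C1q, the molecule that opens the classical complement pathway. They descend from yolk sac and fetal blood precursors and not from the neural crest, which gives rise to the smooth muscle of the ductus arteriosus (DA) and the ascending aorta.

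From the DA there were 5 Prdm6-deficient and 7 control libraries, and from the aorta 5 and 6, which makes 23 in all. The replicate 4 of Prdm6-deficient DA is not analysed here. Embryos called Prdm6-deficient were labelled Wnt1Cre;PRDM6f/f, in which the Wnt1 promoter drives Cre in the neural crest and its derivatives, including vascular smooth muscle cells, and Cre removes both floxed Prdm6 alleles. Control embryos were labelled PRDM6wt/f or PRDM6wt/wt and carried no Cre, except for 1 embryo labelled Wnt1Cre;PRDM6wt/wt, which gave control DA replicate 2 and control aorta replicate 3. Prdm6-deficient DA replicates 1 and 2 were each pools of 2 embryos, and 6 control embryos gave both vessels. Of the Prdm6-deficient embryos, 2 gave both vessels as single samples (DA replicate 5 with aorta replicate 3, DA replicate 7 with aorta replicate 5), and the 2 embryos pooled in DA replicate 2 gave aorta replicates 1 and 2. The animal numbers ran in 2 series, the first of which held 5 DA samples (3 Prdm6-deficient, 2 control) and 3 aorta samples (2 Prdm6-deficient, 1 control).

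Total counts were 15163974 to 22610547 per library, so that 3 counts stood for 0.133 to 0.198 CPM, the count relative to the library total after TMM scaling. Prdm6, summed over the whole gene with its floxed exons not separated, was at 58.6 to 78.5 CPM in Prdm6-deficient DA and at 84.9 to 128 CPM in control DA. In the aorta Prdm6 was at 61.9 to 81.2 CPM in Prdm6-deficient and at 95.6 to 135 CPM in control samples, so the libraries were separated by genotype in both vessels. The smooth muscle markers Myh11, Acta2, Tagln, Cnn1, Mylk, Actg2, Smtn and Des, which mark the labelled vessel tissue, summed to at least 8544 CPM in every library.

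The C1q genes lie side by side on mouse chromosome 4 (mm10, positions 136880129 to 136898803), on the same strand and within 18.7 kb, with 3616 bases between C1qb and C1qc and 2851 bases between C1qc and C1qa. The promoter windows of C1qb and C1qc are shown with that of Mrc1, which lies on chromosome 2, because these members had aorta groups that did not overlap. Capitals mark GAGGAA and its reverse complement, the core letters bound by PU.1 (Spi1), the factor that specifies myeloid cells. Each window runs 5′ to 3′ from 250 bases before to 50 bases after the transcription start, from RefSeq on GRCm38.p6, the assembly called mm10.
C1qb, chr4:136886151-136886450, minus strand: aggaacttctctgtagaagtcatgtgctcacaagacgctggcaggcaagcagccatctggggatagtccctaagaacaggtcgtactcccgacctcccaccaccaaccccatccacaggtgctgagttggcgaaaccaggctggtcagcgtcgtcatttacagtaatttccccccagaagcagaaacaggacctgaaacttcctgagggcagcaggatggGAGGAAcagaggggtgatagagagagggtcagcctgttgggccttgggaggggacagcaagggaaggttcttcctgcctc
C1qc, chr4:136892865-136893164, minus strand: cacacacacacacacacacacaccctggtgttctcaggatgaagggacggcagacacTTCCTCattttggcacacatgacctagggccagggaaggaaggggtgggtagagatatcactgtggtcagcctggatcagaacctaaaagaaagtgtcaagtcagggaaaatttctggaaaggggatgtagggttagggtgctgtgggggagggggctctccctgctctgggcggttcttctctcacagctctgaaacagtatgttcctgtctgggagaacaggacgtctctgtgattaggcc
Mrc1, chr2:14229164-14229463, plus strand: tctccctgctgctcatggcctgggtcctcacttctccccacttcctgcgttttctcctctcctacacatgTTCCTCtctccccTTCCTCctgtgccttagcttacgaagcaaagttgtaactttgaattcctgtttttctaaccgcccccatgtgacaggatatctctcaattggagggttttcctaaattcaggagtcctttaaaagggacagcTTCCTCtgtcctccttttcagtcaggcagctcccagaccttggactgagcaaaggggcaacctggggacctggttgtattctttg
The C1qb window held GAGGAA once, 30 bases before the start. The C1qc window held it once in the reverse orientation, 193 bases before the start. The Mrc1 window held it 3 times in the reverse orientation, 180, 167 and 35 bases before the start. RefSeq windows were matched for 7 of the 10 members and 8 starts, of which 5 held these letters on either strand. Among all 32851 promoter windows of the table, 28.3% held them at least once and 4.82% at least 2 times. A match of 6 letters is a description of the sequence and shows no binding.

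Per length, the C1q subunits and Lyz2, which encodes a secreted bactericidal lysozyme, had the highest levels, and Ptprc, the pan-leukocyte surface phosphatase CD45, had the lowest. Levels per length are CPM divided by the kilobases of the longest coding transcript. In control aorta C1qa was at 45.3 ± 11.1, C1qb at 37.6 ± 8.57, Lyz2 at 31.5 ± 12.03 and C1qc at 29.0 ± 6.16 CPM per kb (SD, n = 6), and the SD ranges of these neighbours overlapped. Mrc1, the mannose receptor of resident macrophages, was at 9.24 ± 1.89 and Csf1r at 7.66 ± 1.83 CPM per kb (SD, n = 6), below the C1q subunits and Lyz2 by more than the SD ranges. Cd68, a lysosomal membrane glycoprotein, was at 3.87 ± 1.48 CPM per kb. Adgre1, which encodes the macrophage surface receptor F4/80, was at 3.52 ± 0.914 CPM per kb. Cx3cr1, the fractalkine receptor, was at 2.78 ± 0.733 CPM per kb (SD, n = 6). These 3 receptors and lysosomal genes overlapped in their SD ranges, and Ptprc at 0.907 ± 0.220 CPM per kb (SD, n = 6) lay below them. In control DA the order was the same. In Prdm6-deficient aorta Lyz2, at 18.01 ± 7.18, stood above C1qb, at 17.6 ± 4.38 CPM per kb (SD, n = 5), with overlapping SD ranges. In both Prdm6-deficient groups Cd68 stood below Adgre1 and Cx3cr1, at 1.64 ± 0.618 CPM per kb in the aorta and 2.34 ± 0.954 CPM per kb in the DA (SD, n = 5 each), again with overlapping SD ranges.

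Counts of 3 members rest on models with limits. Csf1r (chromosome 18, 61100598 to 61132149) shares 873 exonic bases with Hmgxb3 on the opposite strand, and the counting is not stated to use strand. Cx3cr1 (chromosome 9, 119901616 to 120069879) has a long model that spans 9 other genes and shares 78 exonic bases with the antisense gene Gm33858. Lyz2 (chromosome 10, 117277331 to 117282321) has a close paralog, Lyz1, which was at 0.213 CPM or below in every library. For the others the annotation gave no shared exonic bases.

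**Figure D1:**
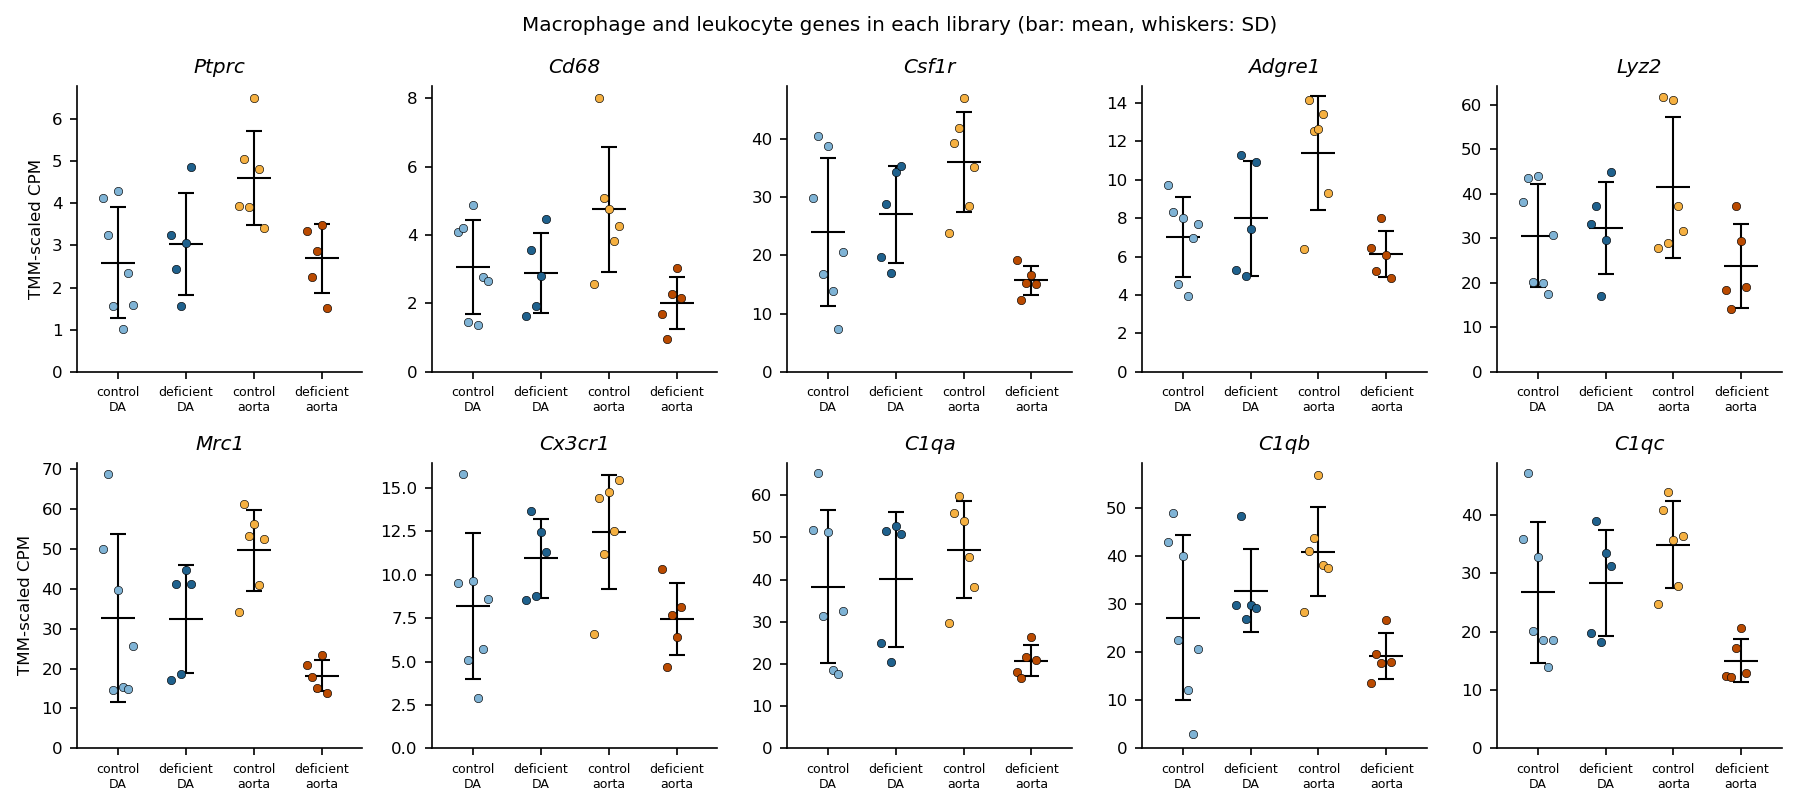
TMM-scaled CPM (vertical axis, from 0) of each of the 10 genes, 1 panel per gene and 1 point per library, in both vessels, with 7 control and 5 Prdm6-deficient libraries of the DA and 6 control and 5 Prdm6-deficient libraries of the aorta. Horizontal bars are means and whiskers SDs. Prdm6-deficient aorta lies below control aorta without overlap for Csf1r, Mrc1, C1qa, C1qb and C1qc, and control DA spreads widest for most genes.

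Whether loss of Prdm6 in the neural crest went with a change in these genes was asked in both vessels. The DA comparison, the main one of the series, had 0 members called and is given after the aorta. In the aorta all 10 members were lower in Prdm6-deficient than in control samples, by 0.74 to 1.45 on the log2 scale. Their median was -1.14, beside -0.001 over all genes tested. A gene was called at an edgeR quasi-likelihood adjusted p below 0.01 (Benjamini-Hochberg over 16463 genes) and a log2 fold change beyond 0.5. By this rule 1 member, C1qc, fell, and the other 9 did not pass, where 2.45% of all genes tested were called and 0.826% were called lower. At an adjusted p below 0.05, 4 members were lower, beside 2.09% of all genes tested. At an unadjusted p below 0.05, 9 members were lower, beside 6.77% of all genes. For 5 members the groups did not overlap, beside 3.04% of all genes tested that did so in the same direction. The members were correlated across libraries, as described below, so these counts are not counts of independent genes.

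The C1q subunits assemble together into 1 molecule, and C1qc was the member that was called. C1qc was at 12.4, 12.2, 17.2, 20.6 and 12.9 CPM in Prdm6-deficient aorta replicates 1 to 5. In control aorta C1qc had a lowest value of 24.7, a median of 36.1 and a highest value of 43.9 CPM. All 5 Prdm6-deficient samples lay below all 6 controls, and the mean fell from 34.9 ± 7.41 (SD, n = 6) to 15.1 ± 3.70 CPM (SD, n = 5). This is a log2 fold change of -1.21 for C1qc (SE 0.27, with edgeR adjusted p = 0.00476), or 43.1% of the control level. Without 1 of control aorta replicates 2 and 3 or Prdm6-deficient aorta replicates 1, 2 and 5, the call of C1qc was lost, and over all 11 such fits its edgeR adjusted p ran from 0.00421 to 0.0194. C1qa was at 18.1, 16.8, 21.7, 26.3 and 20.9 CPM in Prdm6-deficient aorta, against a lowest value of 29.6, a median of 49.6 and a highest value of 59.8 CPM in control aorta. C1qa differed by -1.18 on the log2 scale (SE 0.30, edgeR adjusted p = 0.0155), without overlap. C1qb was at 13.6, 19.7, 17.7, 26.7 and 17.95 CPM in Prdm6-deficient aorta, and its control values ran from 28.4 over a median of 39.6 to 56.7 CPM. C1qb differed by -1.10 (SE 0.38, edgeR adjusted p = 0.112), also without overlap.

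Csf1r, whose signal macrophages need to survive, was at 19.3, 12.4, 15.2, 16.6 and 15.1 CPM in Prdm6-deficient aorta. Control aorta had a lowest Csf1r value of 23.9, a median of 37.3 and a highest value of 47.1 CPM. The groups did not overlap, and Csf1r differed by -1.20 on the log2 scale (SE 0.30, edgeR adjusted p = 0.0165). Mrc1, which binds mannose on microbes and glycoproteins, had the largest difference of the 10. Mrc1 was at 20.9, 17.9, 15.1, 23.4 and 13.9 CPM in Prdm6-deficient aorta, and at 34.1, 52.8 and 61.2 CPM for the lowest, median and highest control. Again no values overlapped, and Mrc1 differed by -1.45 on the log2 scale (SE 0.35, edgeR adjusted p = 0.0107), or 36.7% of the control level. Neither Csf1r nor Mrc1 passed the threshold of 0.01.

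The remaining 5 members overlapped between the aorta groups. Cd68 ran from 0.962 to 3.02 CPM in Prdm6-deficient and from 2.58 to 8.01 CPM in control aorta (log2 fold change -1.23, SE 0.41, edgeR adjusted p = 0.0948). Adgre1 ran from 4.88 to 7.99 against 6.41 to 14.2 CPM (log2 fold change -0.89, SE 0.27, edgeR adjusted p = 0.0559). Lyz2, Cx3cr1 and Ptprc differed by -0.81, -0.74 and -0.77 on the log2 scale, with edgeR adjusted p-values of 0.138, 0.230 and 0.394. Ptprc, at 1.51 to 3.49 CPM in Prdm6-deficient and 3.40 to 6.51 CPM in control aorta, was the only member with an unadjusted p above 0.05. For Ptprc, the member with the lowest level per length, the 95% interval of the log2 fold change ran from -1.58 to 0.03.

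The number of members called in the aorta moved with the method. It was 4 with DESeq2, where 563 genes were called in all, and 5 when only the aorta libraries were fitted, where 702 were. With libraries scaled by their totals alone it was 0, where 407 genes were called in all, beside 404 in the main fit.

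**Figure D2:**
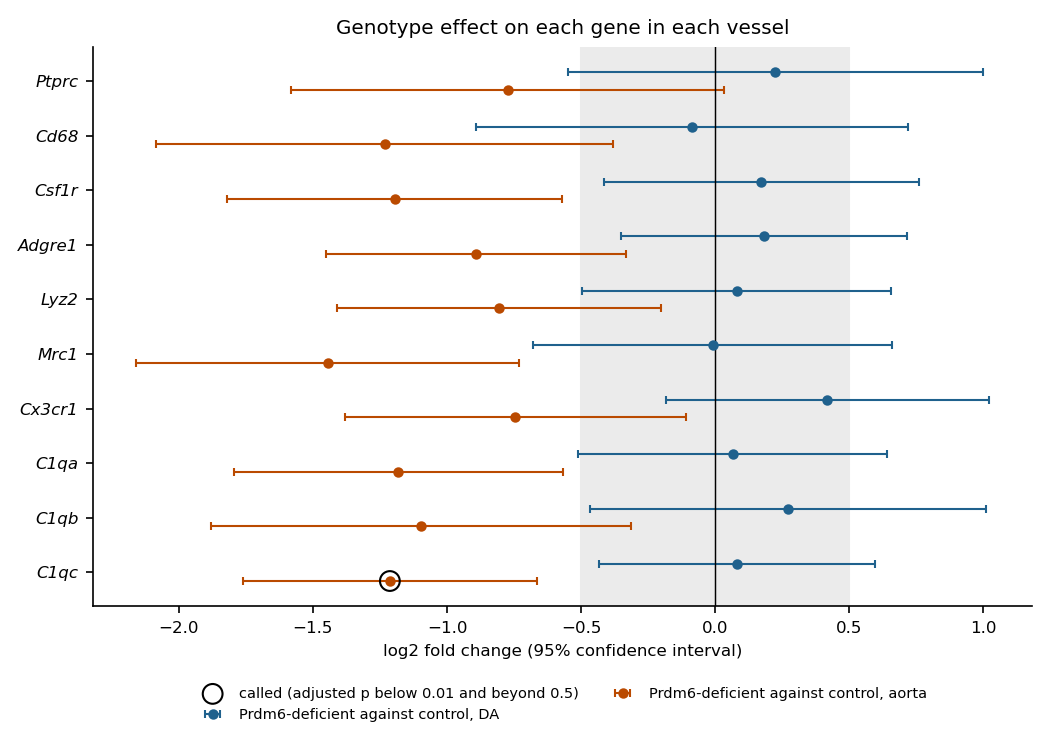
Log2 fold change (horizontal axis) of each gene (vertical axis) in Prdm6-deficient against control samples, with 95% confidence intervals from edgeR, in the DA (blue) and the aorta (orange). The grey band spans the fold change limit of 0.5 either way, the ring marks C1qc as the member called, and every aorta estimate is below 0 while the DA estimates lie between -0.09 and 0.42.

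In the DA the members did not differ detectably between genotypes. Their median log2 fold change was 0.13, beside 0.01 over all genes tested, and by sign 8 were higher and 2 lower without Prdm6. With edgeR, 0 of the 10 members were called, where 5.43% of all genes tested were, and 0 had an unadjusted p below 0.05, where 23.7% of all genes tested did. DESeq2 and limma-voom also called 0. The edgeR adjusted p-values ran from 0.433 for Cx3cr1 to 0.991 for Mrc1, and for 0 members did the groups separate, where 5.66% of all genes tested did.

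The values of 5 members are given with the intervals of their DA differences. C1qc was at 19.7, 39.0, 18.1, 33.4 and 31.3 CPM in Prdm6-deficient DA replicates 1, 2, 5, 6 and 7, and its lowest, median and highest control DA values were 13.9, 20.2 and 47.2 CPM. The C1qc log2 fold change was 0.08, with a 95% interval from -0.43 to 0.60. Mrc1 was at 17.0, 41.1, 18.6, 44.8 and 41.2 CPM in Prdm6-deficient DA, and at 14.7, 25.7 and 68.8 CPM for the lowest, median and highest control DA. Its log2 fold change was -0.01 (95% interval -0.68 to 0.66). Csf1r was at 19.8, 28.9, 17.0, 34.3 and 35.4 CPM in Prdm6-deficient DA, against 7.41, 20.6 and 40.5 CPM in control DA (log2 fold change 0.17, 95% interval -0.41 to 0.76). C1qa was at 24.9, 51.6, 20.5, 52.7 and 50.8 CPM in Prdm6-deficient DA, where replicates 1 and 5 stood apart below the other 3. Its control DA values ran from 17.6 over 32.6 to 65.3 CPM (log2 fold change 0.07, 95% interval -0.51 to 0.64). C1qb was at 29.9, 48.2, 26.9, 29.8 and 29.2 CPM in Prdm6-deficient DA, and from 3.06 over 22.5 to 49.0 CPM in control DA (log2 fold change 0.27, 95% interval -0.47 to 1.01).

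Within control DA the samples high in 1 member were mostly high in the others. Their summed level was 276, 346 and 274 CPM in replicates 1, 2 and 4, and 92.1 to 169 CPM in replicates 3, 5, 6 and 7. Replicate 6 had the lowest C1qb, 3.06 CPM, beside 17.6 CPM of C1qa and 13.9 CPM of C1qc in the same library. For C1qb the highest control DA value was 15.99 times the lowest, and for the other members this ratio was between 2.48 for Adgre1 and 5.47 for Csf1r. In the other groups the ratio was at most 3.14.

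The DA differences had different signs in the animal series. In the first of them, with 3 Prdm6-deficient and 2 control DA samples, the members' median log2 fold change was -0.29, and in the second, with 2 and 5 samples, it was 0.54, with 0 members called in either. In the aorta the first series held 1 control sample and gave no value. Within the second series the median was -1.25 and 1 member was called, where 226 genes were called in all.

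Between the vessels of control embryos, 10 members were lower in the DA than in the aorta by sign, with a median log2 difference of -0.60. Of these 0 were called, where 5.36% of all genes tested were, and the groups overlapped for all 10, where 5.36% of all genes tested did not overlap. At an unadjusted p below 0.05 there were 4 (Ptprc, Csf1r, Adgre1 and Cx3cr1), beside 10.7% of all genes tested that were lower at that level. The nearest to the threshold was Adgre1, at 7.04 ± 2.09 CPM in control DA (SD, n = 7) and 11.4 ± 2.96 CPM in control aorta (SD, n = 6), a log2 difference of -0.70 (SE 0.25, edgeR adjusted p = 0.0689). DESeq2 and limma-voom called 0 as well. In the 6 embryos that gave both vessels, Ptprc, Csf1r and Adgre1 were lower in the DA in 5 and each of the other members in 4. The summed members were higher in the DA in the embryo of control DA replicate 1, at 276 against 188 CPM, and in the Cre-carrying embryo, at 346 against 304 CPM. They were lower in the DA in the other 4, most in the embryo of control DA replicate 6, at 92.1 against 342 CPM.

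Among Prdm6-deficient samples the order by sign was the opposite, with all 10 members higher in the DA than in the aorta and a median log2 difference of 0.67. Again 0 were called, where 0.267% of all genes tested were. At an unadjusted p below 0.05 there were 4 (C1qc, C1qa, Csf1r and Mrc1), beside 5.09% of all genes tested that were higher at that level, and both DESeq2 and limma-voom called 0. C1qc had the smallest p, with 28.3 ± 9.04 CPM in the DA and 15.1 ± 3.70 CPM in the aorta (SD, n = 5 each), a log2 difference of 0.91 (SE 0.27, edgeR adjusted p = 0.137). These groups share 4 embryos, 2 of them through a pool, and the fit treats the libraries as independent. C1qb was the member whose groups did not overlap, beside 3.52% of all genes tested.

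The difference between the genotype effects of the 2 vessels was tested as an interaction term, the DA effect minus the aorta effect. It was positive for all 10 members, from 0.89 for Lyz2 to 1.44 for Mrc1, with a median of 1.21. With edgeR 0 passed the call, where 2.58% of all genes tested did, and 8 had an unadjusted p below 0.05, where 7.63% of all genes tested were higher at that level. C1qc was the member with an adjusted p below 0.05, beside 5.2% of all genes tested, at 1.30 (SE 0.36, edgeR adjusted p = 0.0326). DESeq2 called 1 member, C1qc, where it called 614 genes in all, and limma-voom called 0, where it called 481. Without control DA replicate 2 edgeR called C1qc too, at an adjusted p of 0.00557. Without both libraries of the Cre-carrying embryo, which include that sample, edgeR called 0 members. The effects in the vessels are therefore shown side by side and are not established to differ at the threshold used. These 5 comparisons share samples, so their values are not independent of each other.

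**Figure D3:**
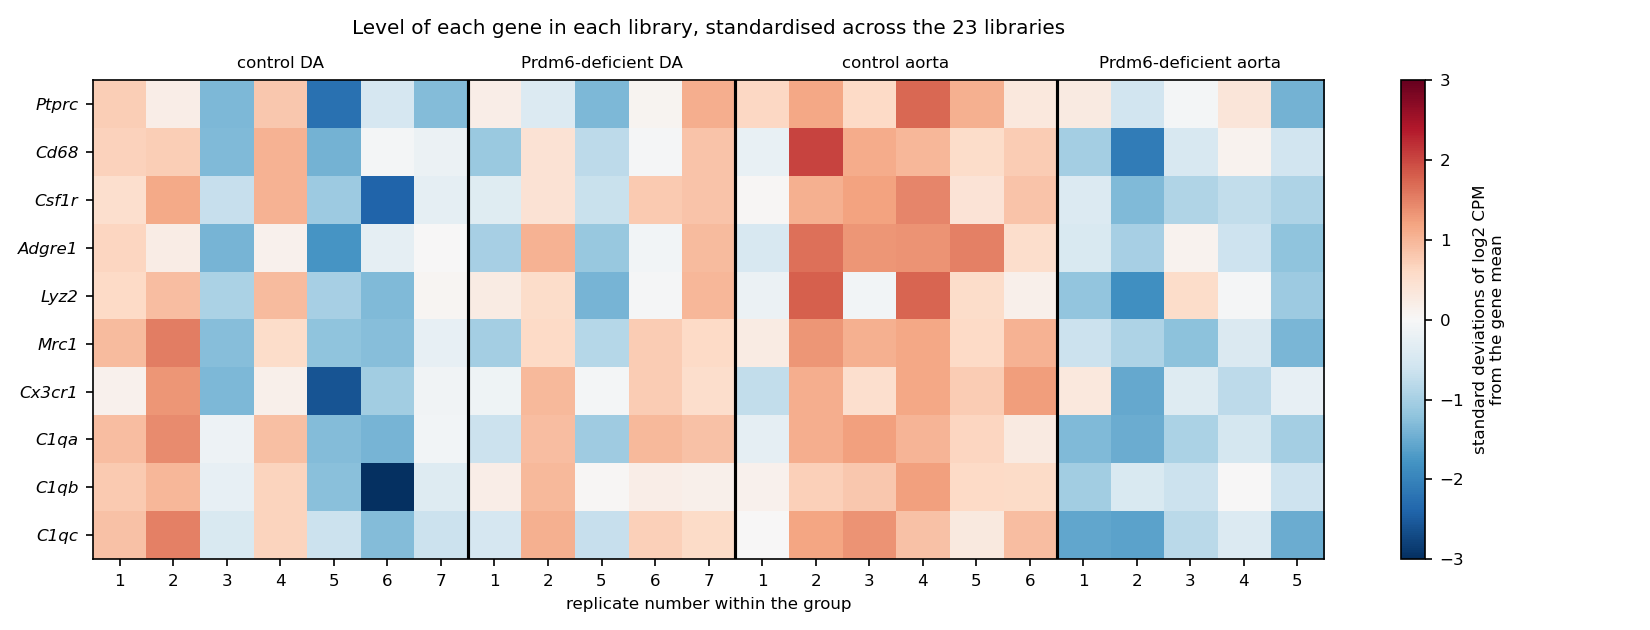
Log2 CPM of each gene (rows) in each of the 23 libraries (columns, numbered by replicate within the 4 groups), as standard deviations from the mean of that gene. Control DA replicates 1, 2 and 4 are red across most rows and replicates 3, 5 and 6 blue, C1qb in control DA replicate 6 is the lowest cell, and most of Prdm6-deficient aorta is blue.

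The 10 genes were correlated across libraries. Over 45 pairs and 23 libraries, Pearson's r of log2 CPM had a median of 0.77 and ran from 0.53 to 0.95, and with the group means removed it had a median of 0.71 (0.35 to 0.92). Mrc1, with r = 0.94, and Csf1r and C1qa, with r = 0.93 each, were nearest to the mean of the other members. Ptprc (0.74) and C1qb (0.76) were farthest from it. The libraries share embryos and pools, and these values are descriptions without a test. Relative to Csf1r, the median C1qc level was 1.03 in control aorta, 0.99 in Prdm6-deficient aorta, 1.20 in control DA and 0.997 in Prdm6-deficient DA. Other ratios to Csf1r had different medians in control and Prdm6-deficient aorta, in this order. They were 1.43 and 1.08 for Mrc1, 0.34 and 0.50 for Cx3cr1, 0.28 and 0.37 for Adgre1, and 0.13 and 0.18 for Ptprc. Cd68 had 0.12 and 0.14, Lyz2 1.23 and 1.27, C1qa 1.33 and 1.38, and C1qb 1.12 and 1.19. For each ratio the ranges of the aorta groups overlapped.

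The 8 other genes most like the members over the 23 libraries were F13a1 (r = 0.93), Akap12 (0.89), Tnxb (0.89), Lyve1 (0.88), Clec3b (0.88), Add3 (0.87), Rbm47 (0.86) and Col6a6 (0.86). F13a1, a transglutaminase subunit, and Lyve1, a hyaluronan receptor, are known from resident vessel-wall macrophages, and Lyve1 also marks lymphatic endothelium. Tnxb and Col6a6 encode matrix proteins known from fibroblasts.

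Fibroblast markers moved with the members. The summed level of Pdgfra, Dcn, Lum, Col1a1, Col3a1 and Dpt had r = 0.69 and Spearman's rho = 0.62 with the mean standardised level of the members over 23 libraries, and r = 0.83 with the group means removed. Without the 2 libraries farthest from the median of the fibroblast sum, r was 0.56. By series it was 0.46 in the first (8 libraries) and 0.79 in the second (15 libraries), and by group it was 0.97 in control DA (n = 7) and 0.53 in control aorta (n = 6). In control DA the 3 samples high in the members had fibroblast sums of 7968 to 9776 CPM, and the 4 low ones had 4709 to 6987 CPM. Smooth muscle markers went the other way, with r = -0.44 over all libraries (Spearman's rho = -0.40), r = -0.83 with the group means removed and r = -0.95 in control DA. Without the 2 libraries farthest from the median of the smooth muscle sum, r was -0.22, so the pooled value was weaker without them. The value with the group means removed was not computed without them.

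Marker sums of some other cell types differed between the aorta groups, and those of others overlapped. The fibroblast sum was 6731 to 8391 CPM in Prdm6-deficient and 7500 to 10033 CPM in control aorta, with Lum called higher and 4 of 6 genes lower by sign. The smooth muscle sum overlapped, at 9491 to 11221 against 8544 to 12175 CPM, with Mylk called higher. The endothelial sum was 987 to 1243 against 640 to 999 CPM, with Emcn, Tie1 and Tek called higher. The sum of the red cell genes Hba-a1, Hba-a2, Hbb-bs, Hbb-bt and Alas2 was 16148 to 57577 CPM in Prdm6-deficient and 26768 to 136480 CPM in control aorta, with 0 of 5 called and a median log2 fold change of -0.81. Markers of autonomic neurons (Th, Dbh, Prph and Elavl4) summed to 19.3 to 58.1 CPM in Prdm6-deficient and 5.45 to 12.6 CPM in control aorta without overlap, and Elavl4 was called higher. The brown fat markers Ucp1, Cidea and Ppargc1a summed to 12.5 to 17.6 against 7.37 to 10.2 CPM, also without overlap, with 0 of 2 tested genes called. A wider red cell list had 0 of 10 tested genes called by edgeR in each comparison. By sign 9 of them were lower in Prdm6-deficient aorta (median -0.82) and 10 higher in Prdm6-deficient DA (median 0.64). In the interaction 10 were positive (median 1.52), and 6 had an unadjusted p below 0.05, beside 15.9% of all genes tested. The sum of the 5 red cell genes had r = 0.43 (Spearman's rho = 0.48) with the mean standardised level of the members over 23 libraries. With the group means removed r was 0.28, and it was -0.08 in the first series and 0.70 in the second. In the DA the fibroblast sum was 9070 to 11077 CPM in Prdm6-deficient and 4709 to 9776 CPM in control samples, with Lum and Col3a1 called higher. The smooth muscle sum was 9981 to 12185 against 14633 to 26036 CPM without overlap, with 7 of 8 markers called lower (median log2 fold change -1.32). The red cell sum in the DA was 24841 to 137612 against 13158 to 66566 CPM, and the endothelial sum overlapped at 860 to 1249 against 757 to 1051 CPM, with Cldn5 called higher. Without overlap, the melanocyte markers Dct, Tyrp1, Pmel, Mlana and Tyr summed to 0 to 1.56 CPM in Prdm6-deficient and 27.7 to 218 CPM in control DA, with 4 of 5 called lower. Skeletal muscle markers summed to 10.7 to 36.5 against 37.6 to 209 CPM, with Ckm called lower. No fibroblast, smooth muscle, endothelial or red cell marker was at or below 3 counts throughout a group, and the part of these cell types in the differences of the members was not tested.

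**Figure D4:**
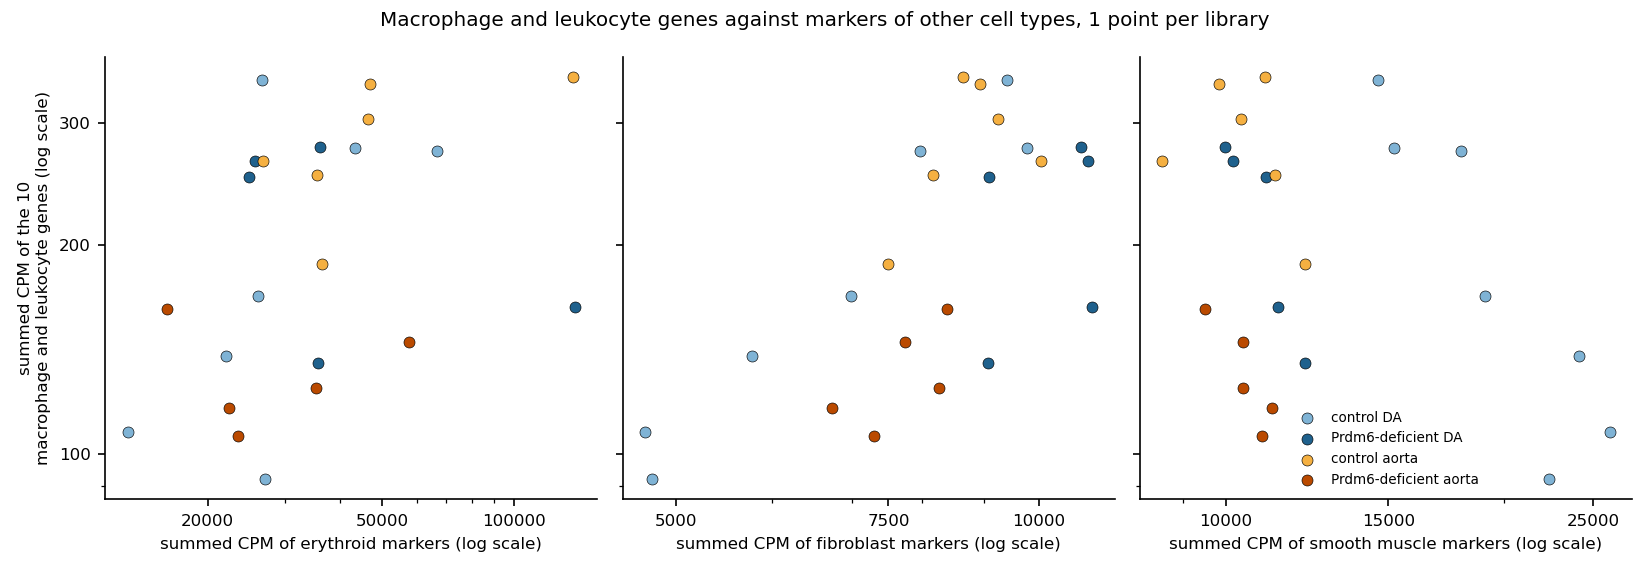
Summed CPM of the 10 macrophage and leukocyte genes (vertical axis, log scale) against the summed CPM of erythroid, fibroblast and smooth muscle markers (horizontal axes, log scale), 1 point per library and 1 colour per group. Control DA samples run from low fibroblast and high smooth muscle sums at 92.1 CPM to high fibroblast and low smooth muscle sums at 346 CPM, and Prdm6-deficient aorta lies below control aorta at overlapping smooth muscle sums.

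Wider lists of myeloid genes were read with the same fit. The myeloid core list holds 22 genes, all of them tested, and includes genes for Fc receptors, their adaptors, phagocyte oxidase subunits and PU.1. In the aorta 21 of 22 were lower by sign in Prdm6-deficient samples, with a median of -0.81, but edgeR called 0. At an unadjusted p below 0.05 there were 9, beside 14% of all genes tested. Its most abundant genes were Mertk, a receptor for dying cells, and Laptm5, a lysosomal protein. In the DA 19 of 22 were higher by sign (median 0.30), and edgeR called 0. Only 2 had an unadjusted p below 0.05, beside 23.7% of all genes tested. The list summed to 81.3 to 122 CPM in Prdm6-deficient and to 126 to 211 CPM in control aorta. PU.1 itself, Spi1, differed by -0.77 in the aorta (SE 0.35, edgeR adjusted p = 0.295) and by 0.20 in the DA (SE 0.33, edgeR adjusted p = 0.791).

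Of 17 genes listed for resident vessel macrophages, 15 were tested, and 4 fell in Prdm6-deficient aorta, where 0.826% of all genes tested were called lower. F13a1 went from 115 ± 28.8 CPM (SD, n = 6) to 48.7 ± 12.8 CPM (SD, n = 5), or by -1.24 on the log2 scale (SE 0.28, edgeR adjusted p = 0.00705), and its highest Prdm6-deficient value of 70.1 CPM was level with the lowest control of 70.0 CPM. F13a1 shares 74 exonic bases with the antisense gene Gm30489. Pf4, a chemokine of platelets and some resident macrophages, went from 33.3 ± 7.04 (SD, n = 6) to 14.9 ± 2.03 CPM (SD, n = 5; log2 fold change -1.16, SE 0.27, edgeR adjusted p = 0.00946). Selenop, a secreted selenium carrier, had the strongest test, with 188 to 234 CPM in Prdm6-deficient and 508 to 664 CPM in control aorta (log2 fold change -1.45, SE 0.18, edgeR adjusted p = 4.53e-06). Gas6, a ligand of Mertk, fell by 0.90 on the log2 scale (SE 0.18, edgeR adjusted p = 0.00147). Selenop and Gas6 are also made by fibroblasts and smooth muscle cells and do not mark macrophages alone. Lyve1, at 20.6 to 33.2 CPM in Prdm6-deficient and 42.3 to 79.1 CPM in control aorta, differed by -1.28 on the log2 scale (SE 0.40, edgeR adjusted p = 0.0608) without overlap.

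In the DA edgeR called 0 of these 15, with a median log2 fold change of 0.18. At an unadjusted p below 0.05 there were 3, beside 23.7% of all genes tested. Between control vessels Selenop (log2 difference -1.19) and Gas6 (-0.91) were lower in the DA, and Cbr2, a carbonyl reductase, was higher (0.57), with edgeR adjusted p-values of 7.02e-06, 0.000193 and 0.00621. In the interaction Selenop (1.68) and Gas6 (1.25) were called, with edgeR adjusted p-values of 6.32e-05 and 0.00152, and the other 13 were not.

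Genes listed for microglia did not move as a group. Of 8 tested, Tmem119 fell by 0.88 in Prdm6-deficient DA (SE 0.13, edgeR adjusted p = 1.64e-05) and Olfml3 rose by 0.71 (SE 0.16, edgeR adjusted p = 0.0036). Both are also known from mesenchymal cells. Between control vessels Tmem119 was higher in the DA, by 0.88 (SE 0.12, edgeR adjusted p = 6.41e-06). P2ry6, a nucleotide receptor, was called in the same comparison, at a log2 difference of 0.96. In the aorta edgeR called 0 of the 8, with 0 at an unadjusted p below 0.05.

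Genes of other leukocytes were read from further lists. Of 8 tested genes listed for monocytes, Fn1 alone was called. Fibronectin is made by many cells and was at 1814 ± 421 CPM in Prdm6-deficient DA (SD, n = 5) and 3142 ± 607 CPM in control DA (SD, n = 7; log2 fold change -0.79, SE 0.14, edgeR adjusted p = 2.72e-04). Between control vessels Fn1 was higher in the DA by 1.04 (SE 0.14, edgeR adjusted p = 3.39e-06). For neutrophils 6 of 12 genes, for mast cells 7 of 8, for T and NK cells 7 of 17, and for antigen presentation 7 of 11 could be tested, with 0 called by edgeR in any comparison. At an unadjusted p below 0.05 each of these lists had at most 3 genes in a comparison. By sign, 6 of 6 neutrophil genes (median log2 fold change 1.46) and 6 of 7 T and NK cell genes (1.15) were higher in Prdm6-deficient than in control aorta. So were 6 of the 8 monocyte genes (0.11) and 3 of 4 tested B cell genes (0.46). Lower there were 6 of 7 mast cell genes (-0.63) and 5 of 7 antigen presentation genes (-0.63). Neutrophil genes summed to 4.40 to 42.3 CPM in Prdm6-deficient and 3.08 to 15.04 CPM in control aorta, and mast cell genes to 8.74 to 49.0 against 20.3 to 66.4 CPM. In the DA mast cell genes summed to 7.56 to 132 CPM in Prdm6-deficient and 18.1 to 164 CPM in control samples, and neutrophil genes to 3.56 to 19.04 and 0 to 20.3 CPM. T and NK cell genes summed to at most 39.1 CPM in any library. Of 4 tested B cell genes, Ebf1, which stromal cells also use, was lower in control DA than in control aorta (log2 difference -1.08, edgeR adjusted p = 0.00109).

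The complement proteins that act with C1q were taken next. Outside the C1q subunits 12 of 13 listed genes were tested. In the aorta 11 were lower by sign in Prdm6-deficient samples, with a median of -0.95, and edgeR called 0. At an unadjusted p below 0.05 there were 6, beside 14% of all genes tested. In the DA Serping1, the C1 inhibitor, which blocks the proteases carried by C1q, rose by 0.86 (SE 0.21, edgeR adjusted p = 0.00681), from 41.1 ± 19.3 CPM (SD, n = 7) to 74.8 ± 12.3 CPM (SD, n = 5). Serping1 was the gene of this list called in the interaction, at 1.56 (SE 0.31, edgeR adjusted p = 0.0019), and its aorta value was -0.70 (SE 0.23, edgeR adjusted p = 0.0735).

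Among 15 listed ligands and chemokines that feed or attract macrophages, 8 were tested. Csf1, the main ligand of Csf1r, was at 33.5, 33.3, 34.5, 32.7 and 36.1 CPM in Prdm6-deficient aorta, and its lowest and highest control values were 45.5 and 64.9 CPM. Csf1 fell by 0.73 on the log2 scale (SE 0.17, edgeR adjusted p = 0.0068) without overlap. In the DA Csf1 was at 41.2 to 48.5 CPM in Prdm6-deficient and 21.7 to 53.0 CPM in control samples (log2 fold change 0.19, SE 0.16, edgeR adjusted p = 0.534). Its interaction term was 0.91 (SE 0.23, edgeR adjusted p = 0.0151), which did not pass. Il34, the other ligand of Csf1r, whose exons overlap those of antisense genes, was at most 5.01 CPM in any library and at 0 in some, and was not called. Cx3cl1, the ligand of Cx3cr1, was at 2.49 to 7.13 CPM in Prdm6-deficient and 5.16 to 11.7 CPM in control DA (log2 fold change -0.82, SE 0.28, edgeR adjusted p = 0.0612).

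Cxcl12, which retains and attracts leukocytes through Cxcr4, went the opposite way to Csf1 in the aorta. Cxcl12 was at 1632 to 1870 CPM in Prdm6-deficient and 827 to 1218 CPM in control aorta, and rose by 0.73 (SE 0.09, edgeR adjusted p = 1.51e-06). In the DA it was at 549 to 594 CPM and 452 to 592 CPM (log2 fold change 0.13, SE 0.08, edgeR adjusted p = 0.369). Its level was lower in the DA than in the aorta in control samples (log2 difference -1.01) and in Prdm6-deficient samples (-1.62), with edgeR adjusted p-values of 1.47e-09 and 1.07e-11. Without 1 library, the aorta call was lost in 9 of 11 fits for Csf1, 8 of 11 for F13a1 and 9 of 11 for Pf4, and in 0 of 11 for Cxcl12, Selenop and Gas6.

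**Figure D5:**
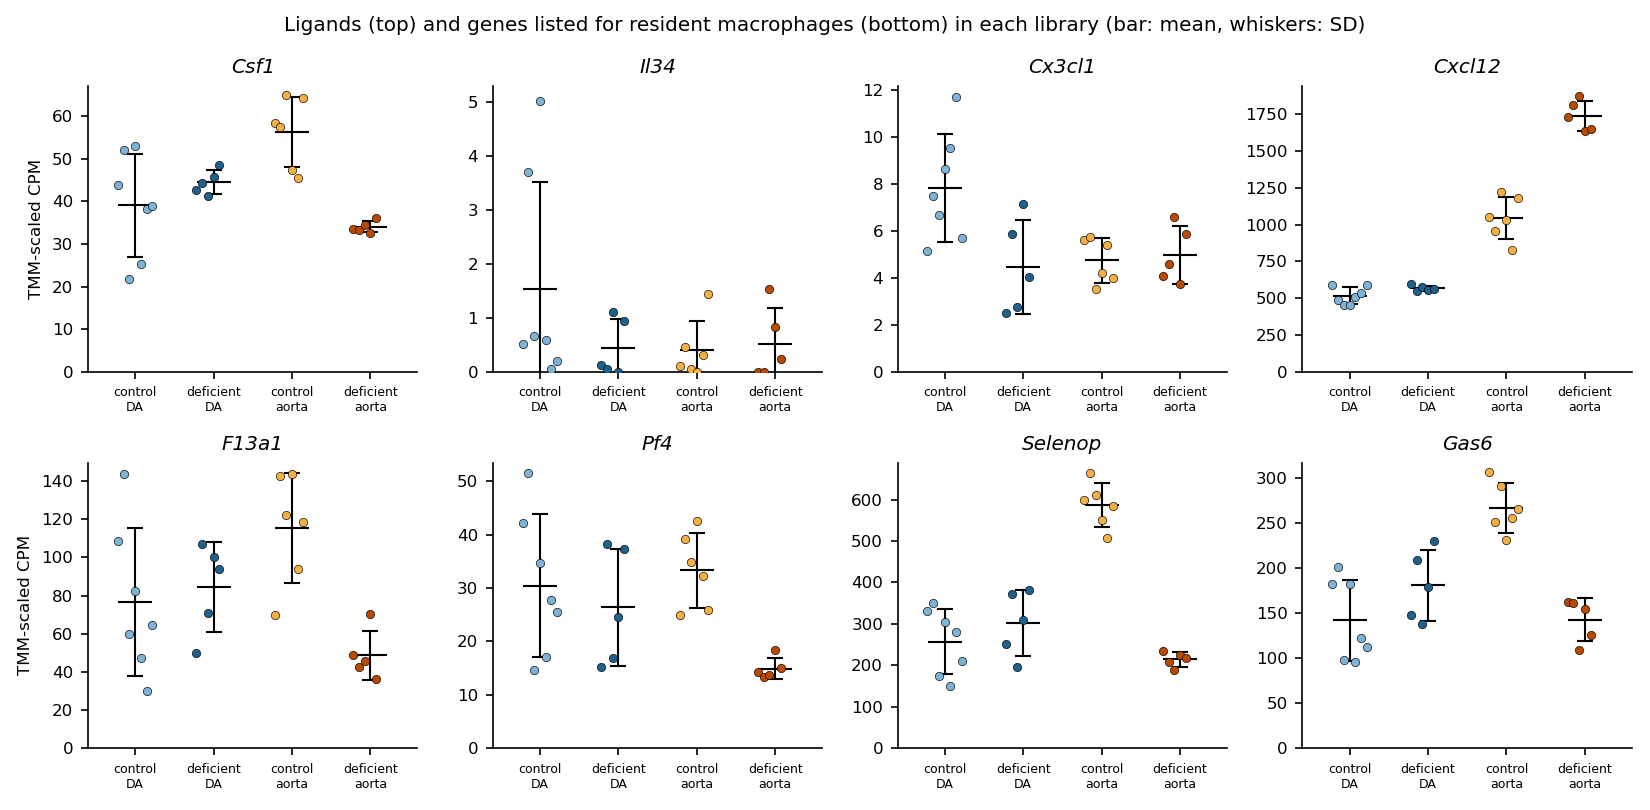
TMM-scaled CPM (vertical axis, from 0) of the ligands Csf1, Il34, Cx3cl1 and Cxcl12 (top row) and of F13a1, Pf4, Selenop and Gas6 (bottom row), 1 point per library in the 4 groups, with means as bars and SDs as whiskers. In Prdm6-deficient aorta Csf1, Pf4, Selenop and Gas6 lie below and Cxcl12 above control aorta without overlap.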

How the data were processed

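The labels list 24 RNA-Seq samples of DA and ascending aorta, of which 23 were analysed, 1 library each. The authors aligned paired-end reads to mm10 with STAR and estimated expression with RSEM, whose versions are not given in the sources used here. The deposited values are RSEM expected counts per gene, not normalized, and were rounded to whole numbers. RSEM divides reads among near-identical genes. Columns were matched to samples by name, with 0 left unmatched. Groups and replicate numbers came from the sample labels.

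Symbols and mm10 coordinates were taken from the GENCODE annotation, in which 54723 of 54752 identifiers were found. Counts were tested with edgeR 4.0.16 in R 4.3.3, using filterByExpr, TMM scaling and the quasi-likelihood test with 1 mean per group over all 23 libraries, and Benjamini-Hochberg adjustment over 16463 genes. The SE is the log2 fold change divided by the square root of F. DESeq2 1.42.0 and limma 3.58.1 (voom) served as alternatives, beside other scalings and filters, animal series, blocks and fits without 1 library. Tests were tried on simulated counts. Tables were handled in Python 3.11.15 with pandas 2.3.3.

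The members and gene lists were chosen with earlier results of these data known. From each list, up to 3 called genes per comparison are named, or the most abundant if none was called. Pf4, Spi1, Il34 and Cx3cl1 fall outside this rule and were picked with their values in view. Pf4 was called in the aorta with a larger adjusted p than 3 other genes of its list. Some listed genes are not reported here, and list counts and sums leave them out. Depth of 15163974 to 22610547 counts sets the smallest detectable level, and such limits cover counting error only. No 2 libraries of a group agreed within sampling noise (chi-square per gene 15.6 to 115 over 56 pairs). Samples of a group came from separate embryos or pools.

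Samples with the same replicate number did not deviate together between genotypes (r = -0.054 to 0.133 in the DA, -0.033 to 0.027 in the aorta). Vessels of the same control embryo, paired by the animal number in the labels, had r = -0.022 to 0.08.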

Additional observations from a re-analysis of the deposited data

Results flagged for a closer look

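In 104 sets of values, 1 per gene and group, 7 had 1 library far from the rest by Dixon's test at 95%, where chance alone gives about 1 in 20. C1qb was the member among them, at 48.2 CPM in Prdm6-deficient DA replicate 2, a pool of 2 embryos, beside 26.9 to 29.9 CPM in the other 4 libraries. Tmem119 was at 118 CPM in control DA replicate 4 (others 81.4 to 95.5 CPM) and at 57.3 CPM in Prdm6-deficient aorta replicate 4 (others 38.9 to 42.2 CPM). Olfml3 was at 71.1 CPM in control aorta replicate 3, beside 48.5 to 56.0 CPM, and Il34 at 1.44 CPM in control aorta replicate 6, beside 0 to 0.468 CPM. Cbr2 was low in 2 libraries, at 41.9 CPM in control aorta replicate 6 (others 50.5 to 54.0 CPM) and 32.4 CPM in Prdm6-deficient DA replicate 2 (others 56.8 to 62.6 CPM).

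Among the genes named from the leukocyte, complement and ligand lists, the genotype effect differed between the vessels for 5, none of them a member. Markers of other cell types are outside this count. Of those, edgeR called 7 of 8 smooth muscle markers lower in the interaction (median -1.49) and the fibroblast marker Dpt higher. For the 5 listed genes the DA effect minus the aorta effect was 1.68 for Selenop, 1.25 for Gas6 and 1.56 for Serping1 on the log2 scale. It was -0.94 for Fn1 and -0.60 for Cxcl12, each called by the edgeR interaction test.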

How the results depend on the processing

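The number of members called in the aorta, 1, was 4 with DESeq2, 2 with limma-voom, 0 with library totals only, 4 without a filter on low counts, 2 with a stricter filter, 5 with the compared groups only, 2 without the control embryo that carries Cre, 2 with animal as a random block and 4 at an adjusted p below 0.05. With the replicate number as a replicate block it was 2. Without 1 library it was 0 to 1, and the median ran from -1.23 to -1.04. For the interaction the 0 members called became 1 with DESeq2, in the second animal series only and at an adjusted p below 0.05, and 0 to 1 without 1 library, with a median of 1.82 in the second series and of 1.07 to 1.42 without 1 library. In the DA and between vessels 0 members were called under each alternative run. The members' median without 1 library ran from -0.0017 to 0.28 in the DA, from -0.75 to -0.45 between control vessels and from 0.53 to 0.75 between Prdm6-deficient vessels. The cause of these moves was not tested.

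Signs in the DA turned within the first animal series, with a median of -0.29, Csf1r at -0.28, Adgre1 -0.13, Lyz2 -0.27, Cx3cr1 -0.077, C1qa -0.56, C1qb -0.31 and C1qc -0.51. Mrc1 turned to 0.10 with limma-voom, 0.10 with the animal block, 0.058 with the replicate block, 0.50 in the second series, 0.088 without the pools and 0.29 without the Cre embryo. Cd68 turned to 0.35 in the second series, 0.0038 without the pools and 0.0067 without the Cre embryo, and Lyz2 to -0.0076 without the pools. Between Prdm6-deficient vessels Ptprc (-0.28), Cd68 (-0.32), Adgre1 (-0.26) and Lyz2 (-0.33) turned within the first series. Without 1 library, values in the DA ran from -0.014 to 0.39 for Ptprc, -0.30 to 0.063 for Cd68, -0.069 to 0.24 for Lyz2, -0.15 to 0.28 for Mrc1, -0.059 to 0.24 for C1qa and -0.061 to 0.28 for C1qc, and between Prdm6-deficient vessels from -0.069 to 0.34 for Ptprc.

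Among other genes, the call of Csf1 in the aorta was lost without control aorta replicate 1, 2, 3 or 6 or any Prdm6-deficient aorta library (edgeR adjusted p at most 0.02). F13a1 lost it without control aorta replicate 2, 3, 4 or 6 or Prdm6-deficient aorta replicate 1, 2, 3 or 5 (at most 0.0289), and Pf4 without control aorta replicate 2, 3, 4 or 5 or any Prdm6-deficient library (at most 0.0305). Serping1 in the DA lost it in 9 of 12 fits, without control DA replicate 3, 4, 5, 6 or 7 or Prdm6-deficient DA replicate 1, 2, 6 or 7, Olfml3 without Prdm6-deficient DA replicate 2 or 7, and Fn1 in the interaction without Prdm6-deficient aorta replicate 1 or 5 or Prdm6-deficient DA replicate 2 or 7. Between control vessels Cbr2 lost it in 11 of 13 fits (all but without control DA replicate 1 or 2) and P2ry6 in 12 of 13 (all but without control DA replicate 7). Within 1 animal series the calls of Gas6 in the aorta (second series, edgeR adjusted p = 0.0177) and of Tmem119 and Fn1 in the DA (first series) were lost. In the interaction the second series alone lost the calls of Cxcl12 (edgeR adjusted p = 0.0169) and Serping1 (0.0103), and leaving out the pools lost that of Fn1. The replicate block also ended the calls of Csf1, Serping1 in the DA and Cbr2. The first series alone could not be fitted for the aorta, control vessels or interaction, with 1 control aorta library.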
